A study of Mus musculus with 2 samples.

Results

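Cycling osteoclast precursors are mouse bone-marrow cells that carried the transcripts of osteoclast commitment and of cell division but little Acp5 or Ctsk, the enzyme genes of the resorbing osteoclast. Adherent marrow cells of 1 male C57BL/6J mouse aged 3 months were kept for 48 h with 5 ng/mL M-CSF in hormone-depleted medium, then for 24 h with 100 ng/mL M-CSF, 30 ng/mL RANKL and 10 ng/mL human TNF. In the DHT library 1 nM 5α-dihydrotestosterone, an androgen that is not converted to oestrogen, was present throughout, and the Vehicle library received the same volume of ethanol. The cells were lifted with EDTA and a scraper and made into 1 droplet-based 3′ library per group. With 1 library per group and 1 mouse, no test between DHT and Vehicle was possible, and every difference below is one between these libraries, without a replicate check.

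The members were chosen from the measured transcripts. A barcode was kept at 5000 or more UMIs (unique molecular identifiers, 1 per captured transcript), 300 or more genes and at most 10% mitochondrial UMIs. It was a member when Jdp2, Nfatc1 and Tnfrsf11a together made at least 0.1% of its UMIs, Mki67 and Top2a at least 0.03%, and Acp5 and Ctsk under 0.1%. Members also had under 0.03% for C1qa, C1qb and C1qc, under 0.05% for the monocyte genes F13a1, Vcan, Ccr2 and Ly6c2, under 0.3% for the granule genes Mpo, Elane, Prtn3 and Ctsg, and under 3% for S100a8 and S100a9. The rule found 735 cells in the DHT library and 1541 in the Vehicle library, 2276 of 21428 barcodes in all. The libraries shared 33 barcodes, of which 0 were members in both.

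Osteoclasts arise from monocyte-macrophage cells by fusion. M-CSF, acting through its receptor Csf1r, drives the precursors to divide, and RANKL, acting through RANK (the product of Tnfrsf11a), induces the transcription factor Nfatc1, with Jdp2 upstream of it. Precursors usually leave the cell cycle before fusing, and the fusion genes Dcstamp and Ocstamp and the proton pump gene Atp6v0d2 are switched on around that step. Type I interferon, made by many cells and read through Ifnar1 and Ifnar2, is a known brake on osteoclast formation: RANKL itself induces interferon-β, which lowers c-Fos protein.

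The libraries held 319430510 UMIs in 10798 barcodes (DHT) and 453802415 in 10630 (Vehicle), and 6766 and 8130 barcodes passed the filter. The members were deep and alike in depth, with a median of 59585 UMIs and 7303 genes in the DHT library against 62584 UMIs and 7343 genes in the Vehicle library. Mitochondrial UMIs made a median of 2.42% and 2.57%. Scrublet called as doublets 9 DHT members (1.22%) and 40 Vehicle members (2.60%).

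The label fits the genes that the rule did not use. Csf1r stood at 216 CPM (UMIs of the gene per 1000000 UMIs) in the summed DHT members and 212 in the Vehicle members, Dcstamp at 65.0 and 69.9, Ocstamp at 39.9 and 38.2, and Atp6v0d2 at 116 and 140. The mitotic genes Ccnb1 (168 and 152 CPM) and Plk1 (115 and 99.7 CPM) and the replication gene Pcna (255 and 230 CPM) were present as well. Of 9 mast cell and basophil markers 0 reached 2 CPM in either library. Genes of late osteoclasts were near absent, for Oscar stood at 0.197 and 0.406 CPM, Itgb3 at 0.328 and 0.099 CPM, and Calcr had a UMI in 2 Vehicle members and in 0 DHT members, where a limit of 3 counts allows up to 0.408% of cells with a UMI.

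Among the values that chose the members, the Jdp2, Nfatc1 and Tnfrsf11a sum had a median of 0.171% of UMIs in DHT members and 0.161% in Vehicle members. The medians of Mki67 and Top2a were 0.102% and 0.0966%, and those of Acp5 and Ctsk 0.0108% and 0.0105%. The thresholds cut through a continuum: 91 DHT and 201 Vehicle members lay within 0.01 percentage points above the Mki67 and Top2a limit, with medians of 0.0349% and 0.0347%, and 109 and 257 cells lay as close below it, with medians of 0.0252% and 0.0246%. Within 0.02 percentage points of the osteoclast-gene limit there were 87 DHT and 294 Vehicle members above and 102 and 274 cells below. These values describe the choice and support nothing.

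Cycling precursors made up a smaller share of the DHT library, whereas the split between cycling and non-cycling precursors differed little. They were 10.9% (95% exact binomial interval 10.1 to 11.6) of the kept DHT barcodes and 19.0% (18.1 to 19.8) of the kept Vehicle barcodes, a ratio of 0.573 (0.528 to 0.622). All intervals here cover counting error only, not differences between cultures or mice. Non-cycling precursors, which meet the same rule except for the Mki67 and Top2a minimum, were 7.76% and 13.9% of kept barcodes, a ratio of 0.559. Cells rich in S100a8 and S100a9 were 1897 of the kept DHT barcodes and 1007 of the Vehicle barcodes. Taken over the barcodes below the S100a8 and S100a9 limit, cycling precursors were 15.1% and 21.6%, a ratio of 0.698 (0.644 to 0.756). A share says nothing of the number of cells in the culture, and lifting and capture of each cell type were not measured.

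Within the precursors, 735 of 1260 cells in the DHT library (58.3%, 55.6 to 61.1) and 1541 of 2670 in the Vehicle library (57.7%, 55.8 to 59.6) were above the cycling threshold, a ratio of 1.01 (0.955 to 1.07). After every barcode was thinned to 5000 UMIs the shares were 58.0% and 56.5%. Among the cells at 0.1% or more of Acp5 and Ctsk, 44.5% of the 602 cells with DHT and 37.4% of the 1003 with Vehicle were above that threshold, a ratio of 1.19 (1.06 to 1.34). Along the Acp5 and Ctsk scale the cycling share went from 64.2% (DHT) and 61.8% (Vehicle) below 0.02% of UMIs to 47.4% and 53.04% between 0.02% and 0.05%, and was 52.3% and 49.3% between 0.05% and 0.1%. The decline was not steady with DHT, and the DHT share was the lower one in the 0.02% to 0.05% bin. Between 0.1% and 0.2% the shares were 50.3% and 43.3%. They were 41.2% and 33.1% between 0.2% and 0.5%, and above 0.5% they were 17.2% of 29 cells and 21.2% of 52 cells. Both sums are among those that chose the members, so these shares describe the scale and support nothing.

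**Figure D1:**
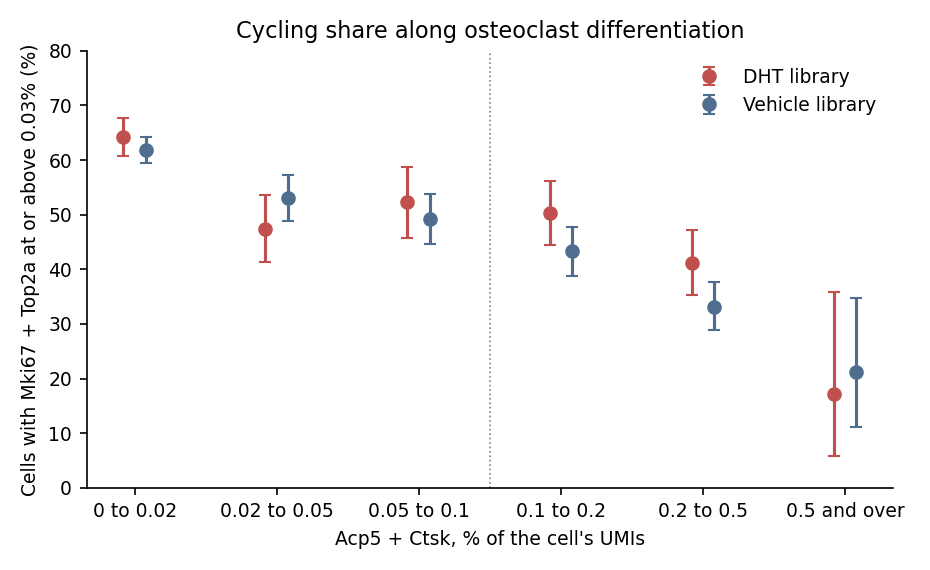
Percent of osteoclast-lineage cells (y axis) at or above the Mki67 and Top2a threshold, by their Acp5 and Ctsk percent of UMIs (x axis), for the DHT and Vehicle libraries, with 95% exact binomial intervals and a dotted line at the members' limit of 0.1%. The share is 64.2% and 61.8% in the lowest bin and 17.2% and 21.2% in the highest, and the libraries lie furthest apart between 0.2% and 0.5%, at 41.2% and 33.1%.

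The strongest difference between DHT and Vehicle members was a set of interferon-stimulated genes. Because there is no test, a gene is called higher or lower here at a ratio of at least 1.5-fold between the summed CPM of the libraries. Of the 6529 genes that reached 20 CPM in either library, 70 genes (1.07%) were higher with DHT and 7 (0.107%) lower. The median log2 ratio of all 6529 genes was 0.03, and 88.7% of them lay within 0.2 of 0. Of the 70 higher genes 31 were in the list of type I interferon-stimulated genes and 8 in the list of interferon gamma GTPases and antigen processing. When the 1% of member cells with the most UMIs of each gene were left out, 67 of the 70 were still at least 1.5-fold higher and 4 of the 7 lower. With the 20 CPM minimum applied again to those sums, 59 and 3 of these calls were left.

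Isg15, which encodes a ubiquitin-like protein, stood at 81.4 CPM in the DHT members and 6.06 CPM in the Vehicle members, 13.4-fold (12.3 to 14.7). Oasl2, of the oligoadenylate synthetase family, stood at 21.4 and 1.20 CPM, 17.8-fold (14.8 to 21.7). Irf7, a transcription factor that amplifies interferon production, stood at 33.3 and 2.93 CPM, 11.3-fold (10.0 to 12.9). Rtp4, at 85.6 and 6.78 CPM, was 12.6-fold higher (11.6 to 13.7). These 4 genes had the highest ratios of the named genes, and each was low in the Vehicle members and not in the DHT members.

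The 12 genes with the highest ratios are given here without immunoglobulin and predicted genes. Among the 12, Oas3 (37.1 and 5.66 CPM) and Oas2 (26.7 and 5.16 CPM) make the second messenger that activates RNase L, and had log2 ratios of 2.71 and 2.37. Between them in rank were Slfn5 at 57.0 and 9.95 CPM (2.52) and Ddx58, which encodes the RNA sensor RIG-I, at 44.1 and 8.04 CPM (2.46). Ly6a, a surface protein gene, stood at 47.4 and 9.53 CPM, Xaf1 at 35.1 and 7.78 CPM, Trim30a at 67.2 and 19.0 CPM, and Irgm1, an immunity-related GTPase gene, at 24.5 and 7.28 CPM. Among the 12 highest named genes 11 were type I genes and Irgm1 was in the gamma list.

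The core promoters of 4 of these genes are shown because they hold matches to the element that interferon-activated transcription factors are known to bind. Each line gives the 150 bases before the annotated start (RefSeq, GRCm38.p6), read 5′ to 3′ on the gene's strand, with matches to the core of the interferon-stimulated response element on either strand in capitals (GAAA, any 2 bases, GAAA). The Isg15 window (chr4:156200819-156200968, minus strand) holds 3 overlapping matches, Oas3 (chr5:120777660-120777809, minus strand) 1, Trim30a (chr7:104465194-104465343, minus strand) 1 in reverse orientation, and Irgm1 (chr11:48871421-48871570, minus strand) 2 that overlap.
Isg15: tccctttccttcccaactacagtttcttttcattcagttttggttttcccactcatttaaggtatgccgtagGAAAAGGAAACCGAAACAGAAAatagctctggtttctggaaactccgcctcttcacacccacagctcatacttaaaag
Oas3: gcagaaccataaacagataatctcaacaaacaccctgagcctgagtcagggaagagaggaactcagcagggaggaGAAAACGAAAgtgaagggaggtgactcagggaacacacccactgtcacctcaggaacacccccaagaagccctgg
Trim30a: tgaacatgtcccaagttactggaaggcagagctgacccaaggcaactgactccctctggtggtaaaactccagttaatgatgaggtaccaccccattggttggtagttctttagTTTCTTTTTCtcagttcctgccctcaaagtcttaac
Irgm1: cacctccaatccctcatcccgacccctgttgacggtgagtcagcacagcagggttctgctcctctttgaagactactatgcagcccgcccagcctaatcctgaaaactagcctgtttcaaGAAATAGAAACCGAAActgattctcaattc

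In windows of 300 bases (250 before to 50 after the start) this core was found for 1079 of 27025 genes (3.99%). It was found for 21 of the 47 type I genes in the table (44.7%), for 13 of 25 genes of the gamma list (52.0%) and for 18 of 58 of the genes higher with DHT (31.0%). Of the 12 genes named above for the highest ratios, Slfn5 and Ddx58 also held it and the windows of Oasl2, Irf7 and Xaf1 did not. Rtp4, Oas2 and Ly6a were not analysed here. A match describes the sequence and says nothing of binding in these cells.

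**Figure D2:**
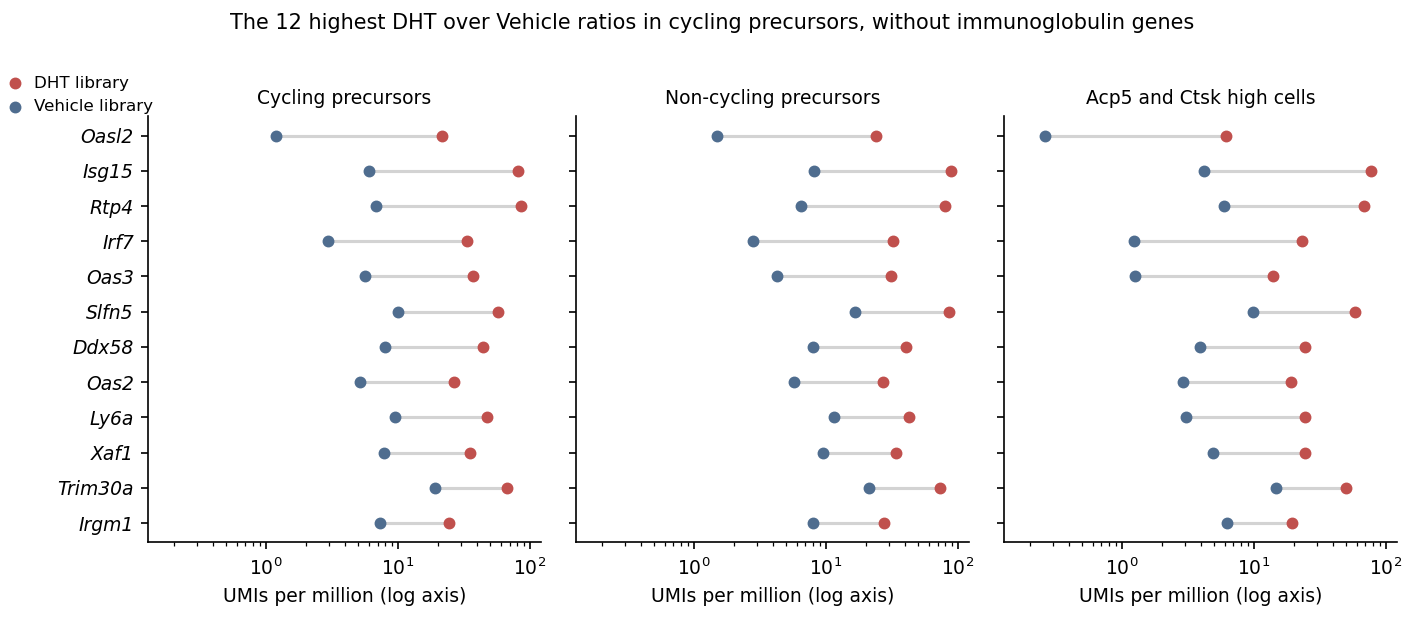
Summed CPM (log axis) of the 12 genes with the highest DHT over Vehicle ratios in cycling precursors, with 1 point per library, in cycling precursors, non-cycling precursors and Acp5 and Ctsk high cells. Immunoglobulin and predicted genes were left out of the 12. In all 3 groups of cells the DHT point lies to the right of the Vehicle point for each gene (Isg15 81.4 against 6.06 CPM in cycling precursors).

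Over the whole type I list, 55 of 60 genes reached 2 CPM in 1 or both libraries. Of these 51 were at least 1.5-fold higher with DHT and 0 lower, with a median log2 ratio of 1.38, whereas 2% of all 10562 genes at that level were higher and 0.568% lower. Of the 55 genes 11 reached 2 CPM with DHT only and so had to be higher there, and of the 44 that reached it in both libraries 40 were at least 1.5-fold higher. The 4 others, Slfn9, Tor3a, Daxx and Trim25, had log2 ratios of 0.31 to 0.43 in the same direction. Signalling genes of the pathway differed less than many of its targets: Irf9 stood at 40.03 and 15.8 CPM (log2 ratio 1.34) and Stat2 at 13.5 and 6.60 CPM (1.03).

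In the gamma and antigen-processing list 18 of 26 genes were higher and 0 lower (2% and 0.568% of all genes at that level). Their median log2 ratio was 0.97. Of the list's 32 genes 6 were under 2 CPM with DHT and 10 with Vehicle. The genes that reached 2 CPM with DHT only had to be higher there. The class I heavy-chain gene H2-Q7 stood at 37.7 and 11.6 CPM, B2m, the light chain of MHC class I, at 1165 and 666 CPM, and the peptide transporter gene Tap1 at 45.8 and 24.8 CPM. H2-D1 (611 and 485 CPM) and the immunoproteasome gene Psmb8 (213 and 180 CPM) did not reach 1.5-fold. H2-Q7 belongs to a family of near-identical class I genes, between which reads may be split.

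Of 15 measured genes that make or read interferon (ligands, receptors and kinases) 0 passed 1.5-fold, where 2.57% of all genes at that level did, and their median log2 ratio was 0.08. Another 6 were below 2 CPM. Ifnar1 stood at 48.0 CPM with DHT and 44.3 CPM with Vehicle, Ifnar2 at 96.2 and 98.5 CPM, and the receptor kinases Jak1 at 97.8 and 94.5 CPM and Tyk2 at 24.8 and 22.9 CPM. Cgas, the sensor of cytosolic DNA, stood at 49.5 and 40.8 CPM. Ifnb1 had 0 UMIs in the members of both libraries.

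The interferon difference was spread over many cells. With each member thinned to 5000 UMIs, type I genes made a median of 0.36% of a DHT cell's UMIs (quartiles 0.24% and 0.52%) and 0.18% of a Vehicle cell's (0.12% and 0.26%). In the DHT library 43.9% (40.3 to 47.6) of members lay above 0.38%, the 95th percentile of the Vehicle members, and the distributions overlapped. At least 1 Isg15 UMI was found in 23.5% (20.5 to 26.8) of the thinned DHT members and 3.50% (2.64 to 4.55) of the thinned Vehicle members, and in 68.3% and 17.98% before thinning. As a reference for free RNA, thinned cells positive for Cd79a and Cd79b, B-lineage genes, had an Isg15 UMI in 14.4% of 278 cells with DHT and in 0 of 49 with Vehicle, where a limit of 3 counts allows up to 6.12% of cells. B-lineage cells can express Isg15 themselves. The free share of the members' UMIs was estimated from markers of other cells at 3.19% with DHT (1.99% to 12.8% by marker) and 4.499% with Vehicle (2.89% to 25.9%). With it subtracted, the log2 ratio of Isg15 was 3.76, against 3.75 as counted.

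**Figure D3:**
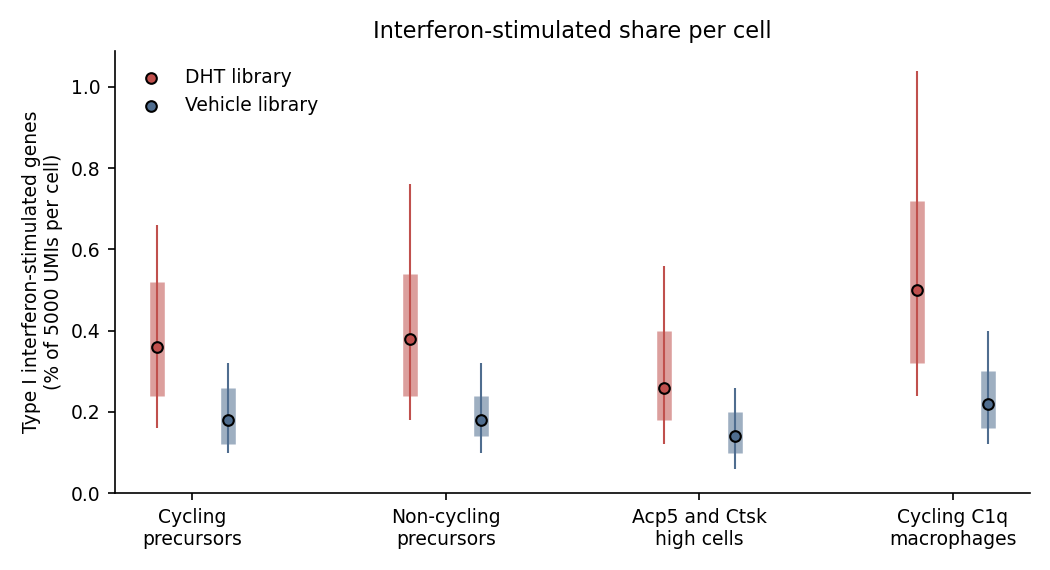
Type I interferon-stimulated genes as a percent of a cell's UMIs after thinning to 5000 UMIs (y axis), in cycling precursors and 3 other groups of cells of each library; points are medians, thick bars quartiles, and thin lines the 10th to 90th percentile of cells. In the cycling precursors the median is 0.36% with DHT and 0.18% with Vehicle.

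The difference was found at each position in the cell cycle and along the approach to the Acp5-rich state. Members were split into 3 equal parts by their G2 and M share, S phase share, Acp5 and Ctsk share or UMI total, and in each of these 12 parts 48 to 52 of the 54 to 56 measured type I genes were at least 1.5-fold higher with DHT. In the lowest part by G2 and M share, type I genes made 0.394% of the summed DHT UMIs and 0.198% of the Vehicle UMIs, and in the highest 0.412% and 0.202%. The non-cycling precursors, from the same libraries, gave 52 of 57 type I genes higher and a median log2 ratio of 1.66. Of the list's 60 genes 3 were under 2 CPM in the non-cycling DHT cells and 17 in the Vehicle cells. The genes that reached 2 CPM with DHT only had to be higher there, which raises the count and the median. In the 12 parts such genes were not counted apart. In non-cycling precursors 84 of 6344 genes (1.32%) were at least 1.5-fold higher and 3 (0.0473%) lower, and in the cells rich in Acp5 and Ctsk 57 of 6402 (0.89%) and 2 (0.0312%). Of the 70 genes 61 were also higher in the former and 46 in the latter. Cycling macrophages that carried C1q transcripts had 134 of 6625 genes (2.02%) higher and 23 (0.347%) lower.

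Some interferon genes rested on very few cells. Cxcl10, a chemokine gene, stood at 15.8 CPM with DHT and 2.78 CPM with Vehicle, but 378 and 176 of its 722 DHT UMIs came from 2 cells. In the Vehicle members 1 cell held 292 of the 418 UMIs of Ifit1, Ifit2, Ifit3, Rsad2 and Cmpk2 together, including 186 of the 206 Rsad2 UMIs. The next cell held 13. The other 1540 Vehicle members held 20 Rsad2 UMIs in all, whereas the DHT members held 171 in 97 cells, and the log2 ratio of 0.88 for Rsad2 thus rests on that Vehicle cell. Without the 1% of cells with most UMIs, the log2 ratio of Cxcl10 was 2.10 in place of 2.51. These genes were singled out after their values were seen.

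The cell cycle genes differed little between the libraries, within cells that had all been chosen for a minimum of Mki67 and Top2a. None of 71 G2 and M phase genes, 45 S phase genes, 22 cytokinesis genes and 19 G1 to S genes passed 1.5-fold, against 2.57% of all genes with at least 2 CPM, and the median log2 ratios of the lists were 0.07, 0.06, 0.08 and 0.08. Cdk1, the mitotic kinase, stood at 244 CPM with DHT and 224 CPM with Vehicle, its cyclin Ccnb1 at 168 and 152 CPM, and Cdc20, the activator of the anaphase-promoting complex, at 146 and 135 CPM. Birc5, a subunit of the chromosomal passenger complex, stood at 284 and 293 CPM. Mcm5, of the replicative helicase, was at 133 and 117 CPM, the G1 cyclin gene Ccnd1 at 578 and 492 CPM and its kinase partner Cdk6 at 536 and 530 CPM. Ccnd1 had a log2 ratio of 0.23 (0.21 to 0.25), small beside the 1.5-fold limit but above the all-gene median.

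Per cell, thinned G2 and M phase genes made a median of 0.90% of UMIs with DHT and 0.84% with Vehicle, with 5 abundant genes left out, and S phase genes 0.28% in both. Among 18 cell cycle inhibitors and p53 targets 0 were higher and 1, Cdkn1c at 1.60 and 2.60 CPM, was lower. Cdkn1a, which encodes the kinase inhibitor p21, stood at 255 and 220 CPM in the cycling members and at 181 and 123 CPM in the non-cycling precursors, log2 ratios of 0.21 and 0.56. Whether those ratios differ between the cell groups could not be tested.

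Promoter elements known from cell cycle genes are shown with these genes, in the same format. The cell cycle homology region, TTTGAA on either strand, is in capitals in Cdc20 (chr4:118437344-118437493, minus strand) and Cdk1 (chr10:69352913-69353062, minus strand). In Mcm5 (chr8:75109359-75109508, plus strand) the capitals mark an E2F match, TTTGGCGC in reverse orientation.
Cdc20: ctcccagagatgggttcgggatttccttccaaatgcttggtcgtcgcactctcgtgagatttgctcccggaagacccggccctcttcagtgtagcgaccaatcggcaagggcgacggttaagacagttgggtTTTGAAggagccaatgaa
Cdk1: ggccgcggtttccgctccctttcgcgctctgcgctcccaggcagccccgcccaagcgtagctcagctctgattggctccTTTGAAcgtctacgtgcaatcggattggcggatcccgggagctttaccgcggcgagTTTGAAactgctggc
Mcm5: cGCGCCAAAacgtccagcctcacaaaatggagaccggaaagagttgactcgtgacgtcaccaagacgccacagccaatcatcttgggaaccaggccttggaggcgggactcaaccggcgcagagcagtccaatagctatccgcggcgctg

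In the 300-base windows TTTGAA was found for 39 of 57 G2 and M phase genes in the table (68.4%), 12 of 47 type I genes (25.5%) and 5466 of all 27025 genes (20.2%). The windows of Plk1 held it as well, and those of Birc5 and Ccnb1 did not. An E2F match (TTTGGCGC, TTTCCCGC, TTTCGCGC or TTTGCCGC) was found for 14 of 33 S phase genes (42.4%) and 704 of all genes (2.61%). Of the 6 named replication genes and factors looked at, Mcm5 held one and Pcna, Rrm2, Tyms, E2f1 and E2f8 did not.

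Of 34 fusion, attachment and resorption genes 1, the gelatinase gene Mmp9, was higher and 0 lower, a share near the 2% and 0.568% of all genes at that level, and the median log2 ratio was −0.00. The list includes Acp5 and Ctsk, with log2 ratios of −0.04 and −0.06. The rule capped both in every member, so these 2 ratios were partly set by the choice of members and support nothing. Mmp9 stood at 334 CPM with DHT and 178 CPM with Vehicle, 1.88-fold (1.84 to 1.92), and 93.5% and 82.2% of members had an Mmp9 UMI. The cells rich in S100a8 and S100a9 also carried it, with a UMI in 87.0% (DHT) and 75.5% (Vehicle) of them. The part of such cells' RNA in the Mmp9 difference was not tested. Over the alternatives run, its log2 ratio lay between 0.86 and 1.09. Mmp14, a membrane-bound metalloproteinase gene, stood at 220 and 152 CPM, just under 1.5-fold. Dcstamp and Ocstamp had log2 ratios of −0.10 and 0.06, and Atp6v0d2 of −0.27.

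Nfatc1, one of the genes that chose the members, stood at 450 and 449 CPM, and Tnfrsf11a at 324 and 324 CPM. Among 36 osteoclast transcription factors and repressors 0 were higher and 1, Id3, was lower at 5.75 and 11.03 CPM. These counts are near the shares of all genes with at least 2 CPM, 2% higher and 0.568% lower. Id3 encodes an inhibitor of helix-loop-helix factors. Fos stood at 359 and 362 CPM, Spi1 at 601 and 609 CPM, Mitf at 449 and 475 CPM, the repressor Irf8 at 6.93 and 6.35 CPM, and Prdm1, which encodes a repressor of such repressors, at 140 and 131 CPM. Among 26 genes of RANK, M-CSF receptor and costimulatory signalling 0 passed 1.5-fold, where 2.57% of all genes at that level did. The lowest of them was Trem2, a costimulatory receptor gene, at 165 and 227 CPM (log2 ratio −0.46), and its adaptor Tyrobp stood at 807 and 918 CPM.

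Of 29 TNF and NF-kB genes 7 were higher and 0 lower (2% and 0.568% of all genes), with a median log2 ratio of 0.08. Of the list's 35 genes 6 were under 2 CPM with DHT and 8 with Vehicle. Genes that reached 2 CPM with DHT only had to be higher there. The 7 included Il1rn, the interleukin-1 receptor antagonist gene, at 81.9 and 42.8 CPM, Lcn2 at 57.5 and 23.9 CPM, and Cd40 at 5.78 and 2.505 CPM. Lcn2 is also a neutrophil gene. Its log2 ratio of 1.27 became 4.18 with free RNA subtracted and lay between 1.04 and 1.66 under the other alternatives. The feedback inhibitors Nfkbia (491 and 503 CPM) and Tnfaip3 (32.7 and 30.9 CPM) and the subunit gene Relb (48.1 and 45.0 CPM) did not pass 1.5-fold.

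Of 24 androgen and steroid response genes 0 passed 1.5-fold, where 2.57% of all genes with at least 2 CPM did. The median log2 ratio was 0.01. Fkbp5, a steroid-induced chaperone gene, stood at 36.9 and 36.2 CPM.

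**Figure D4:**
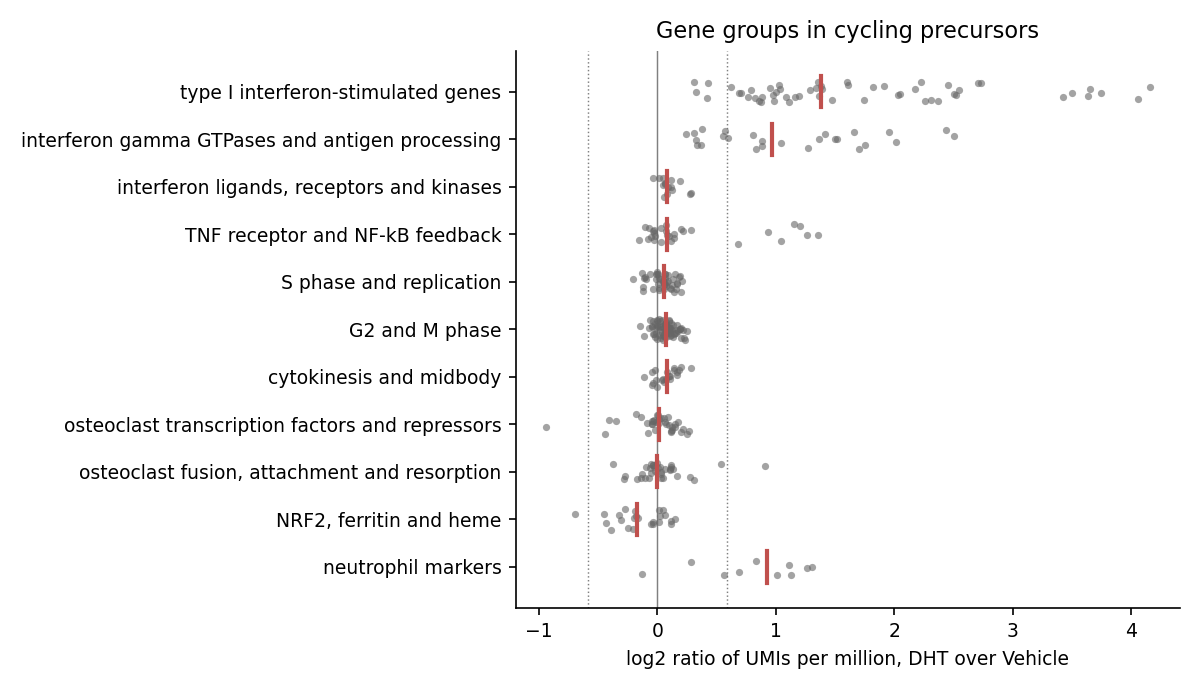
Log2 ratio DHT over Vehicle in cycling osteoclast precursors (x axis) of each measured gene of 11 lists, with 1 point per gene, a bar at each list's median, and dotted lines at 1.5-fold. The type I list is centred on 1.38, the gamma list on 0.97 and the neutrophil markers on 0.92, whereas the cell cycle and osteoclast lists are centred between −0.00 and 0.08.

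Genes lower with DHT were few and of small ratio. Hmga2, a chromatin architecture gene of progenitor and fetal cells, stood at 12.4 CPM with DHT and 22.7 CPM with Vehicle, log2 ratio −0.87 (−1.01 to −0.74). With an osteoclast-gene threshold of 0.15% it was −0.43, and the call was lost. Mgst3, a glutathione transferase gene, stood at 32.2 and 52.0 CPM and Syngr1 at 15.3 and 24.6 CPM (log2 ratio −0.69, and −0.54 at that threshold). In the list of NRF2, ferritin and heme genes the median log2 ratio was −0.17. Of its 24 genes 1 passed 1.5-fold, against 2.57% of all genes with at least 2 CPM. Others leaned the same way, with Gclm, of glutathione synthesis, at 164 and 224 CPM, Blvrb at 175 and 237 CPM and the ferritin gene Ftl1 at 7441 and 9753 CPM, whereas Hmox1 stood at 35.9 and 33.2 CPM. Hmga2, Mgst3, Gclm, Blvrb and Ftl1 had been chosen with earlier results from these libraries known and give no independent evidence.

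Among the lower genes were also H2-Ab1, H2-Eb1 and H2-Aa, of MHC class II, and these rested on few cells. Their sum was 51.8 CPM with DHT and 89.4 CPM with Vehicle, and 64.2% and 77.3% of it came from the 1% of members with the most such UMIs. Without those cells the sum was 18.5 and 20.3 CPM, and the median member had 0 and 1 UMI. Igha and Igkc, immunoglobulin genes, had the highest log2 ratios of the 70 higher genes, 8.24 and 5.70. They were the same kind of result: 1 DHT member held 2968 of 3004 Igha UMIs, and 1947 of 2287 Igkc UMIs came from 1 cell.

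Transcripts of several other marrow cells were higher in the DHT members. Those of T and NK cells were not on the whole, and dendritic cell markers went both ways. The rule had capped S100a8, S100a9, the C1q genes and the monocyte and granule genes it names, so their levels are partly set by the choice of members. Of 10 measured neutrophil markers 7 were higher and 0 lower (2% and 0.568% of all genes at that level), and the list's sum was 983 CPM with DHT and 601 CPM with Vehicle, 2.43% and 4.52% of its level over all kept barcodes, which was 40529 and 13281 CPM. S100a8 stood at 309 and 209 CPM, with a UMI in 100% and 98.8% of members, and Ngp at 68.1 and 33.8 CPM. Without the 1% of members richest in it, the log2 ratio of S100a8 was 1.27 in place of 0.56. Monocyte markers were higher for 4 of 8 genes (sum 108 and 65.1 CPM), C1q macrophage markers for 5 of 11 (674 and 513 CPM) and B-lineage markers for 3 of 4 (18.6 and 7.11 CPM). Of the 11 B-lineage markers 8 were under 2 CPM with DHT and 10 with Vehicle. Each of the 4 measured thus reached 2 CPM in 1 library only and had to be higher there. In the neutrophil, monocyte, C1q, dendritic, and T and NK lists more markers were under 2 CPM with Vehicle than with DHT. The same limit applies to them in part. No neutrophil or monocyte marker was at 0, whereas 2 of 15 C1q macrophage markers and 1 of 11 B-lineage markers had 0 UMIs in each library. Granulocyte-monocyte progenitor markers were higher for 4 of 6 genes (498 and 463 CPM), among them Mpo, Elane, Prtn3 and Ctsg, which the rule capped. Of 7 measured dendritic cell markers 2 were higher and 3, the MHC class II genes, lower, with a median log2 ratio of −0.16. The sum of all 14 dendritic cell markers was 442 CPM with DHT and 357 CPM with Vehicle. Of 2 measured T and NK cell markers 1 was higher, and the sum of all 10 was 16.5 CPM with DHT and 20.3 CPM with Vehicle, with 5 and 3 of them at 0. Apoe (108 and 64.7 CPM) and Mrc1 (29.8 and 18.7 CPM) were among the macrophage genes. The part of these cells' RNA in the differences of Lcn2, Apoe and the other marker genes was not tested.

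Within each library, cycling precursors differed from non-cycling ones in cell cycle genes, and fusion and resorption genes leaned to the non-cycling side. The split itself used Mki67 and Top2a, so the cell cycle genes describe the choice. Of 6428 genes 295 (4.59%) were at least 1.5-fold higher in the cycling cells of both libraries and 31 (0.482%) lower in both. Among the 295 there were 81 genes of the cell cycle lists and 15 histone genes. The lists are short, and cell division genes such as Sgo1, Spc25, Kif18a and Plk4 were among the 295 but in none of them. The rest of the 295 is thus no count of genes outside the cell cycle. Of 71 G2 and M phase genes 67 were higher in both, with median log2 ratios of 2.28 (DHT) and 2.16 (Vehicle), but only 13 of 45 S phase genes, with medians of 0.48 and 0.35. Plk1 stood at 115 CPM in cycling and 12.7 CPM in non-cycling DHT cells, and at 99.7 and 9.94 CPM in Vehicle cells. Pcna stood at 255 and 182 CPM and at 230 and 179 CPM, so the non-cycling class by this rule still held much replication RNA.

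Outside the cell cycle lists, the highest ratios were those of replication-dependent histones, with Hist1h1b at 290 CPM in cycling and 10.7 CPM in non-cycling DHT cells and at 403 and 16.3 CPM in Vehicle cells. Pif1, a helicase gene, had log2 ratios of 4.55 and 3.94, and Kif14, a cytokinesis motor gene, of 3.61 and 3.99. The kinase inhibitor genes Cdkn2c (2.65 and 2.86) and Cdkn2d (2.49 and 2.59) were higher in the cycling cells too. Cdk6 was slightly lower there, at 536 and 653 CPM in the DHT library and 530 and 631 CPM in the Vehicle library.

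Fusion and resorption genes leaned to the non-cycling side. Of 34 such genes 30 were below 0 in both libraries, with medians of −0.32 and −0.19 against all-gene medians of 0.03 and 0.04, and 5 were at least 1.5-fold lower in both: Ocstamp, Dcstamp, Atp6v0d2, Src and Slc9b2. Acp5 and Ctsk, which the rule capped in both groups of cells, are in this list. Ocstamp stood at 39.9 CPM in cycling and 82.2 CPM in non-cycling DHT cells, and at 38.2 and 72.5 CPM in Vehicle cells. Dcstamp stood at 65.0 and 120 CPM and at 69.9 and 118 CPM. Ltbp1, which encodes a TGF-β binding protein of the matrix, had the lowest ratios of the named genes, −1.46 and −1.09. The chemokine receptor gene Ccr1 (−1.11 and −0.83), the repressor genes Bach2 (−1.004 and −0.76) and Zeb1 (−0.91 and −0.76) and the demethylase gene Kdm5b (−0.92 and −0.84) were also among the 12 lowest named genes. The median UMI total of non-cycling cells was lower (48841 and 52121), and CPM are relative to that total.

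The DHT ratio itself was alike in cycling and non-cycling precursors. Of 6185 genes 2 (0.0323%), Nptx1 and Zfp367, had a ratio at least 1.5-fold larger in the cycling cells, and 10 (0.162%) a smaller one. The latter included S100a8 (log2 ratio 0.56 in cycling and 1.31 in non-cycling cells), S100a9 (0.69 and 1.40), Ms4a7 (0.35 and 1.18) and the 3 MHC class II genes, which are markers of other cells. The rule capped S100a8 and S100a9 in both groups of cells. In the cycling Vehicle cells 2 cells held 2071 and 1940 of the 21131 S100a8 UMIs. The median S100a8 and S100a9 share per cell was 0.0555% (DHT) and 0.0216% (Vehicle) in cycling cells. In non-cycling cells it was 0.0551% and 0.0223%. Isg15, at 3.75 and 3.45, Irf7, at 3.50 and 3.54, and Mmp9, at 0.91 and 0.94, were close.

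**Figure D5:**
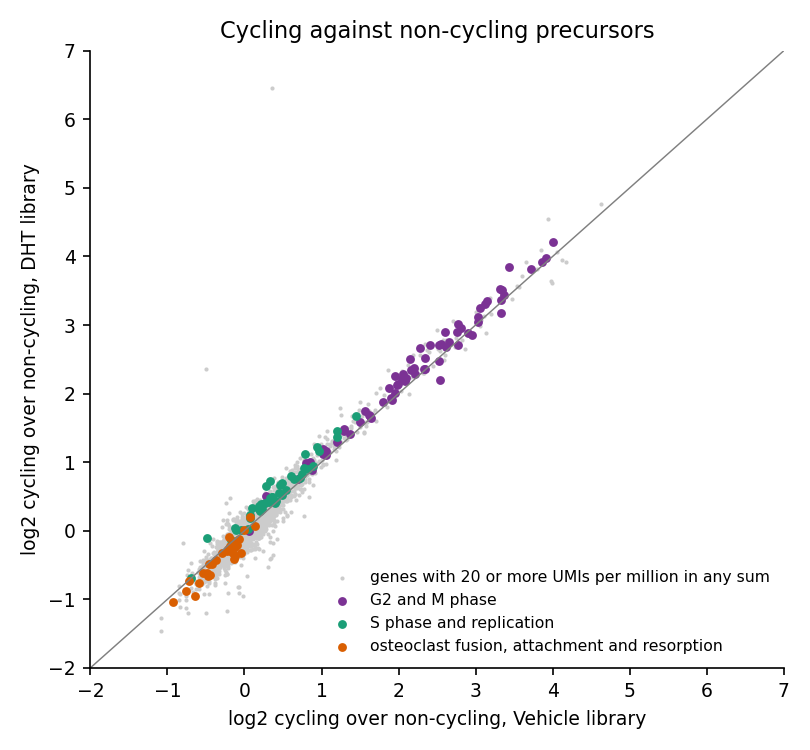
Log2 ratio of cycling over non-cycling osteoclast precursors for each gene, Vehicle library on the x axis and DHT library on the y axis, with G2 and M phase, S phase, and fusion and resorption genes in colour and a line where both ratios are equal. G2 and M phase genes sit high in both libraries (medians 2.16 and 2.28), and fusion and resorption genes mostly below 0 (medians −0.19 and −0.32).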

How the data were processed

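The authors deposited raw UMI counts per gene and barcode for each library, made with Cell Ranger 7.0.1 per the submitters' processing notes, which name GRCh38 and mm10 without a role. Neither the cell calling nor the treatment of intronic reads is given in the sources used here. Members were found by the rule in the report. Their counts were summed per library and divided by the library's member total (CPM). Ratios carry 95% exact conditional binomial intervals, shares Clopper-Pearson intervals and share ratios log-normal intervals, all for counting error. The members and gene lists were chosen with earlier results of these data known. Named were the rule's genes, the 12 highest and lowest ratios past 1.5-fold at 20 CPM or more (without immunoglobulin and predicted genes), the 3 extremes of each list, the 12 extremes between cycling and non-cycling cells, the 8 extremes of the difference in DHT ratio, and a list of osteoclast and cell cycle genes. Lists used genes with at least 2 CPM. Doublets were scored with Scrublet (scanpy 1.11.5, expected rate 0.08) and not removed. edgeR 4.0.16 (TMM) and DESeq2 1.42.0 (median of ratios) gave scaling factors only. On simulated data with 6455 genes tested, 100 of 100 genes changed 2-fold were called, 0 of 100 changed by 0.3 on the log2 scale and 0 of 6255 unchanged. The simulated sums held counting error only, without spread between cells or cultures. A change of 0.3 lies below the 1.5-fold limit, so that outcome was fixed in advance. These counts check the calculation and give no rate of false calls in the real data. Some interferon-induced genes are not reported here.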

Additional observations from a re-analysis of the deposited data

How the results depend on the processing

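No paired analysis was possible because each group had 1 library. Type I interferon genes at least 1.5-fold higher with DHT numbered 40 to 56 over the alternatives run, with a median log2 ratio of 1.24 to 1.45, G2 and M phase genes past 1.5-fold stayed at 0, and the ratio of the cycling share among precursors ranged from 0.979 to 1.05. With TMM and median-of-ratios scaling, which shift log2 ratios by −0.04, 63 and 62 genes were higher, all among the 70. The share ratio of 0.573 became 0.690 with at least 20000 UMIs per barcode, 0.641 with an osteoclast-gene threshold of 0.15% and 0.507 with an S100a8 and S100a9 limit of 0.1%. With a minimum of 5 CPM 153 genes were higher and 22 lower with DHT, and with 50 CPM 34 and 2. Lower genes numbered 20 with barcodes thinned to 5000 UMIs and 3 with the 0.15% threshold. Resorption genes past 1.5-fold, 1 in the report, numbered 5 when list genes with any UMI were counted and 2 with thinned barcodes, an osteoclast-gene threshold of 0.07%, an Acp5 and Ctsk limit of 0.05% or 0.2%, without the 10% of barcodes with the highest Scrublet scores, or with means of CPM over cells. Between cycling and non-cycling cells, genes lower in both libraries numbered 19 thinned, 73 with a minimum of 5 CPM and 19 with 50 CPM, and genes higher in both 137 with 50 CPM. At the 0.15% threshold the log2 ratios of H2-Eb1 and H2-Aa were 0.26 and 0.16, and that of H2-Aa was 0.042 without the 1% of members richest in it, an alternative chosen after seeing the data. Unless an alternative tests other genes or cells by construction, the cause was not tested. The single mouse and the single library per group limit every result.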

Other observations

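Histone genes were described after their values were seen. All 16 genes whose symbols start with Hist and that reached 20 CPM in 1 or both libraries were lower in the DHT than in the Vehicle cycling precursors, none of them by 1.5-fold, with log2 ratios of −0.50 to −0.01 and a median of −0.26. The 5 linker histone H1 genes among them had a median of −0.32. Hist1h1b stood at 290 CPM with DHT and 403 CPM with Vehicle and Hist2h2ac at 92.6 and 131 CPM. Without the 1% of members richest in each gene the median of the 16 was −0.28, and in non-cycling precursors and in the cells rich in Acp5 and Ctsk it was −0.20 and −0.18. The replication list, by comparison, had a median of 0.06. Replication-dependent histone transcripts mostly lack the poly(A) tail that a 3′ assay primes on, so these values cover only the part that was captured.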
